A study of Mus musculus with 6 samples.

Results

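Of the 54446 genes in the deposited count table, 9 were taken by symbol as the transporters and guanylin signals that set intestinal fluid balance, namely Cftr, Slc12a2, Slc4a4, Slc9a3, Slc26a3, Slc26a6, Guca2a, Guca2b and Gucy2c. All 9 passed the filter on low counts, which left 15068 genes for the tests. Transcripts were measured by RNA sequencing in small intestinal epithelium from 6 mice, labelled as enterocytes. The 3 control mice were Prkci flox/flox, and the 3 knockout mice were Prkci flox/flox with Villin-CRE, so both groups carried the floxed allele and no Cre-only group was analysed here. Prkci encodes the atypical protein kinase C iota/lambda, and the villin promoter drives Cre in intestinal epithelial cells, not in the lymphocytes or stroma of a preparation. All mice were co-housed and were 3 to 4 months old. The tissue was jejunum by the sample titles and a 10 cm piece of jejunum-ileum by the series description. The comparison asks whether transcripts for chloride, bicarbonate and sodium transport, and for the guanylin signal that controls them, differed between knockout and control.

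Fluid enters the gut lumen when chloride and bicarbonate leave crypt cells through the apical channel CFTR. The basolateral carriers NKCC1 (Slc12a2) and NBCe1 (Slc4a4) load the cell with chloride and bicarbonate for that exit. Fluid is taken back when the sodium/proton exchanger NHE3 (Slc9a3) works beside the chloride/bicarbonate exchangers DRA (Slc26a3) and PAT1 (Slc26a6) in the brush border. Guanylin (Guca2a) and uroguanylin (Guca2b) are peptides released into the lumen that bind the receptor guanylate cyclase C (Gucy2c). The cyclic GMP it makes leads to the opening of CFTR and the inhibition of NHE3.

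The libraries held 18972906 to 26687856 counts. Prkci stood at 44.0 to 46.9 CPM, the count scaled to the size of its library, in controls and at 14.6 to 21.5 CPM in knockouts. Enterocyte genes were abundant in all 6 libraries, with the villin gene Vil1 between 3122 and 3422 CPM. Knockout replicate 1 stood apart from its group, with a chi-square per gene of 157 and 105 against knockout replicates 2 and 3, which differed from each other by 49.3. By Xist and Ddx3y, control replicate 3 and knockout replicates 2 and 3 were female and the other libraries male. This differed from the stated sex of 3 mice (control 2, control 3 and knockout 3). Marker levels of several cell types differed between the genotypes or among the libraries. T cell markers did not overlap between genotypes for 8 of 9, all higher in knockouts (10% of all genes), and summed to 141 to 263 CPM in controls and 299.5 to 886 CPM in knockouts. Sums were also higher in knockouts for B and plasma cells (41.0 to 137 against 155 to 361 CPM), macrophages (9.02 to 12.2 against 19.5 to 35.2 CPM) and enteroendocrine cells (218 to 263 against 307 to 429 CPM). They were lower for Paneth cells (1489 to 5428 against 768 to 1389 CPM). Of the 7 Paneth markers, 1 did not overlap between genotypes and was lower in knockouts (11.7% of all genes). By log2 fold change 6 were lower and 1 higher, Mmp7, with means of 34.0 and 65.3 CPM and overlap. Tuft cell markers stood at 197 to 246 CPM in controls and at 201, 20.7 and 27.7 CPM in knockout replicates 1 to 3. Fibroblast markers summed to 5.46, 7.13 and 17.5 CPM in controls and to 52.6, 12.9 and 27.7 CPM in knockouts. The smooth muscle gene Myh11 stood at 0.264, 0.333 and 1.17 CPM and at 12.8, 0.566 and 24.6 CPM. Both were above every control in knockout replicates 1 and 3 and within the controls in replicate 2. Mylk, the most abundant smooth muscle marker, had means of 253 and 271 CPM. The share of counts in the ribosomal loci Gm26917 and Gm42418 was 2.55% ± 0.376 for the controls, against 5.41% ± 0.511 for the knockouts (SD, n = 3 each). The labels name both poly-A selection and a kit that removes ribosomal RNA, so what this share measures is unclear. The part of these differences in the values below was not tested. In bulk RNA, fewer cells of a type and less RNA per cell cannot be told apart.

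None of the 9 genes was called between the genotypes. With edgeR's quasi-likelihood test, 0 of 9 had an adjusted p under 0.05, where 9 genes in all were called (0.0597% of those tested), and DESeq2 also called 0 of 9 (5.55% of all genes). The edgeR test did not call the deleted gene Prkci either (log2 fold change −1.24, edgeR adjusted p = 0.0719). DESeq2 did call Prkci (DESeq2 adjusted p = 9.9e-08), so a gene not called by edgeR may still differ. At an unadjusted p under 0.05, edgeR gave 1 of 9, Guca2b (16.4% of all genes), and DESeq2 gave Guca2b and Slc4a4 (17.5%). The libraries of the genotypes did not overlap for 1 of 9, again Guca2b, against 21.8% of all genes tested. The median size of the log2 fold change was 0.26 over the 9 genes, 0.23 over all genes and 0.17 over the 3552 genes with a mean of at least 50 CPM, a level that all 9 exceed. Each gene is given below with the 95% interval of its change.

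**Figure D1:**
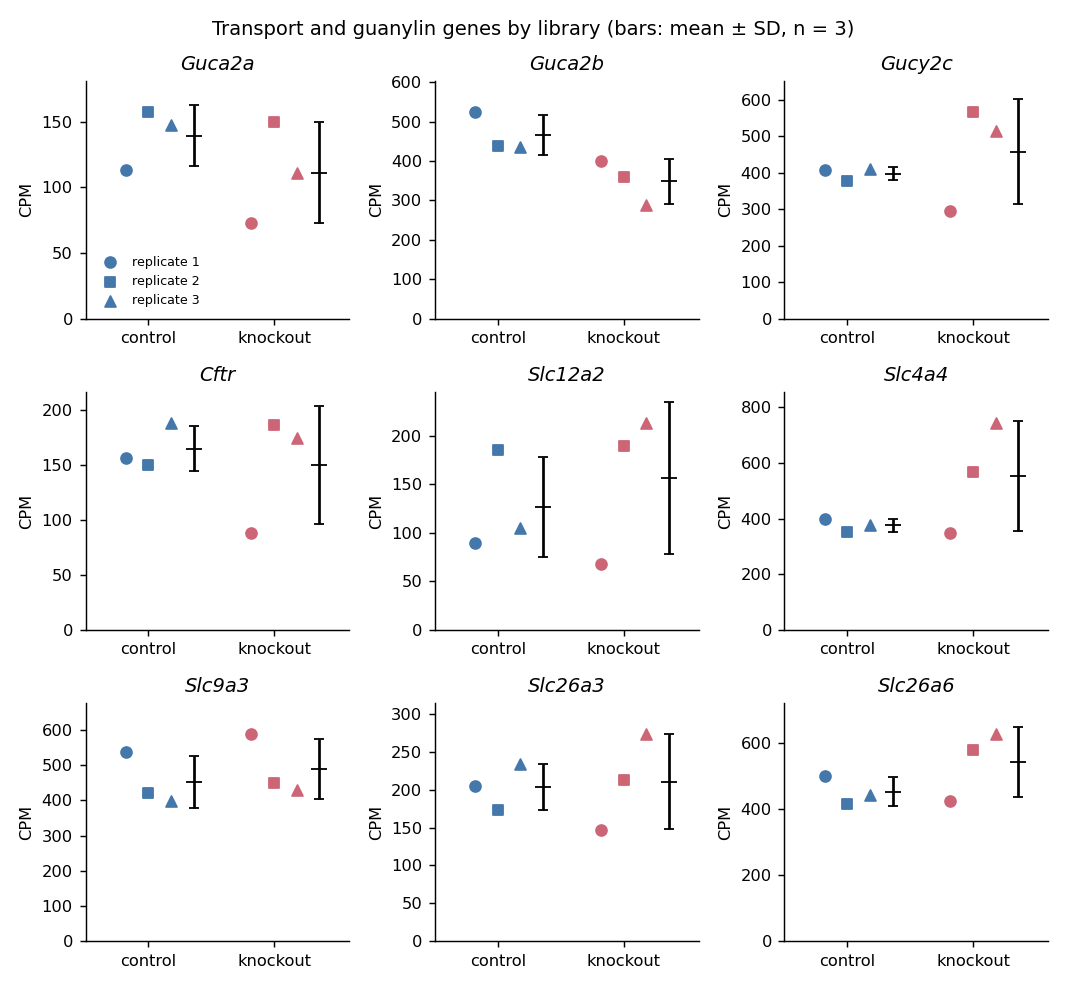
Normalised counts (CPM, vertical axes from 0) of the 9 genes in each library, with control in blue, knockout in red, marker shape for the replicate number, and black bars for mean ± SD (n = 3). Guca2b is lower in each knockout (288 to 401 CPM) than in any control (437 to 525 CPM), and knockout replicate 1 is the lowest of the 6 libraries for 6 of the 9 genes.

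Guca2a and Guca2b are neighbours on chromosome 4, 17135 bases apart, on opposite strands with their 3′ ends facing each other. The sequence before each start is shown because Guca2b was the gene without overlap, while Guca2a, which encodes a ligand of the same receptor, overlapped. Their log2 fold changes were nevertheless close, −0.42 for Guca2b and −0.33 for Guca2a. The mean log2 count ratio of Guca2b to Guca2a differed by −0.05, knockout minus control. That is less than the SD of this ratio among the controls (0.40) or the knockouts (0.67). The sequences are therefore not a comparison of a changed gene with an unchanged one. The 2 sequences are RefSeq promoter sequences on build GRCm38.p6, read 5′ to 3′ on the strand of the gene and ending before the transcript start. Guca2a runs from 250 to 29 bases before the RefSeq start, and Guca2b from 250 to 10. Bases nearer to that start were not searched. Guca2a covers chr4:119637482-119637703 on the plus strand, and Guca2b covers chr4:119658955-119659195 on the minus strand. In the Guca2b sequence, capitals mark the half-site of HNF1 factors, whose letters are GTTAAT. In the Guca2a sequence, capitals mark the motif of GATA factors, searched as AGATAA on both strands like the other motifs.
Guca2a: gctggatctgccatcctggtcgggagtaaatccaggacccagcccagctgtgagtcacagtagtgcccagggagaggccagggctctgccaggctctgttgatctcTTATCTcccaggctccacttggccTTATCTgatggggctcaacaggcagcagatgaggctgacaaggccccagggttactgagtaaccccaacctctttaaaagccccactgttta
Guca2b: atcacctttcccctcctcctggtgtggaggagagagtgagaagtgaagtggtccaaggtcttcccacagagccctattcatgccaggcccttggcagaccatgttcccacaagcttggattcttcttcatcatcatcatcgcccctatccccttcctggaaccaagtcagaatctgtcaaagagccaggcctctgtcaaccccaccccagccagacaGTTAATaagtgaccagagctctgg
The Guca2a sequence (222 bases) holds 2 matches to the GATA letters, both on the opposite strand, and none to the HNF1 half-site. The Guca2b sequence (241 bases) holds 1 match to the HNF1 half-site, beginning 33 bases before the RefSeq start, and none to the GATA letters. Neither holds TTTAT, the core of a CDX site, on either strand. Of 32851 mouse promoter windows, 9.10% held the GATA letters at the length of the Guca2a window and 6.29% held the HNF1 half-site at the length of the Guca2b window. TTTAT stood in 33.7% and 36.7% of windows at these lengths. The motifs were chosen with the sequences in view, no match overlaps another, and a match is a description of letters.

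Uroguanylin transcripts were lower in each knockout than in any control without passing the adjusted threshold. Guca2b (ENSMUSG00000032978.14, chromosome 4, 119656607 to 119658954, protein coding) stood at 525, 438 and 437 CPM in control replicates 1 to 3 and at 401, 358 and 288 CPM in knockout replicates 1 to 3. The groups did not overlap, and the lowest library was knockout replicate 3. The means were 467 ± 50.3 and 349 ± 57.4 CPM (SD, n = 3 each), a knockout to control ratio of 0.748. The log2 fold change was −0.42 (SE 0.16, 95% interval −0.79 to −0.04, edgeR unadjusted p = 0.0339, edgeR adjusted p = 0.263). An exact two-sided permutation test gave p = 0.1, the smallest that 3 against 3 allows. Within the libraries that were male by Xist, the controls stood at 525 and 438 CPM against 401 CPM, and within the female ones the control stood at 437 CPM against 358 and 288 CPM. Since the genotypes did not overlap, no split could give another order, and these values are a description with 1 library in an arm of each set.

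Guanylin transcripts spread widely within the knockouts. Guca2a (ENSMUSG00000023247.2, chromosome 4, 119637704 to 119639471, protein coding) stood at 113, 157 and 147.5 CPM in the controls and at 72.5, 149.7 and 111 CPM in the knockouts. Knockout replicates 1 and 3 were below every control and knockout replicate 2 lay among them. Its log2 fold change was −0.33 (SE 0.26, 95% interval −0.94 to 0.29, edgeR adjusted p = 0.552). The knockout was the lower library in each same-numbered pair, and with the replicate block the log2 fold change was −0.37 (SE 0.15, edgeR adjusted p = 0.300). No label says what the shared numbers mark, so these pairs may not be matched mice. The pairs went both ways for Cftr, Slc12a2, Slc4a4, Slc26a3, Slc26a6 and Gucy2c. The count ratio of Guca2b to Guca2a was 4.63, 2.79 and 2.96 in the controls and 5.53, 2.40 and 2.59 in the knockouts. The highest ratio of each genotype was in the library with the least Guca2a of its group, and the genotypes overlapped.

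The receptor gene overlapped between genotypes in both directions. Gucy2c (ENSMUSG00000042638.14, chromosome 6, 136697284 to 136781765, protein coding), which makes cyclic GMP when guanylin or uroguanylin binds, stood at 406, 377 and 410.1 CPM in the controls and at 294, 566 and 514 CPM in the knockouts. The controls lay close together, while knockout replicate 1 was below all of them and replicates 2 and 3 were above. The log2 fold change was 0.20 (SE 0.24, 95% interval −0.36 to 0.76, edgeR adjusted p = 0.687). Within the female libraries the knockouts were above the control (566 and 514 against 410.1 CPM), and within the male ones the knockout was below (294 against 406 and 377 CPM).

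Among the genes of secretion, Slc4a4 had the largest mean difference. Slc4a4 (ENSMUSG00000060961.14, chromosome 5, 88886818 to 89239653, protein coding), the sodium bicarbonate cotransporter that loads the cell from the blood side, stood at 399, 353 and 376 CPM in the controls and at 348, 567 and 743 CPM in the knockouts. Knockout replicates 2 and 3 were above every control, and replicate 1 was just below the lowest one. The means were 376 ± 22.9 and 553 ± 198 CPM (SD, n = 3 each), with a log2 fold change of 0.55 (SE 0.26, 95% interval −0.06 to 1.17, edgeR adjusted p = 0.341). The coefficient of variation was 6.09% among controls and 35.8% among knockouts.

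The apical chloride channel gene was within the control range in knockout replicates 2 and 3 and low in replicate 1. Cftr (ENSMUSG00000041301.15, chromosome 6, 18170687 to 18322768, protein coding) stood at 156, 149.7 and 188 CPM in the controls and at 88.2, 186 and 175 CPM in the knockouts. Between genotypes the log2 fold change was −0.14 (SE 0.27, 95% interval −0.78 to 0.50, edgeR adjusted p = 0.826), and knockout replicate 1 was at 0.536 of the control mean. Genes that overlap Cftr had few reads, since the antisense gene Gm15592 had 1 count, in knockout replicate 1, and the pseudogene Gm15595 had 21 to 54 counts per library.

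The chloride loader NKCC1 had the widest spread of the 9 genes. Slc12a2 (ENSMUSG00000024597.10, chromosome 18, 57878678 to 57946821, protein coding) stood at 89.7, 185 and 105 CPM in the controls and at 67.5, 189 and 213 CPM in the knockouts, a 3.15-fold range. Control replicate 2 and knockout replicates 2 and 3 were high and the other libraries low, so the genotypes overlapped. The log2 fold change was 0.31 (SE 0.45, 95% interval −0.75 to 1.36, edgeR adjusted p = 0.754). NKCC1 is known as a carrier of crypt cells, and 9 crypt and progenitor markers summed to 403, 810.2 and 412 CPM in the controls and to 337, 806 and 677 CPM in the knockouts. The libraries with the 3 highest sums were those with the 3 highest Slc12a2 levels. Mki67, a gene of dividing cells on that list, stood at 103, 156 and 104 CPM in the controls and at 89.4, 261 and 213 CPM in the knockouts. The stem cell receptor gene Lgr5 stood at 2.90, 9.71 and 4.52 CPM and at 2.23, 2.79 and 1.72 CPM, so it was not high in knockout replicates 2 and 3. The part of crypt content in the Slc12a2 values was not tested. The count ratio of Slc12a2 to Cftr was 0.573, 1.24 and 0.558 in the controls and 0.765, 1.02 and 1.22 in the knockouts, which overlapped.

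**Figure D2:**
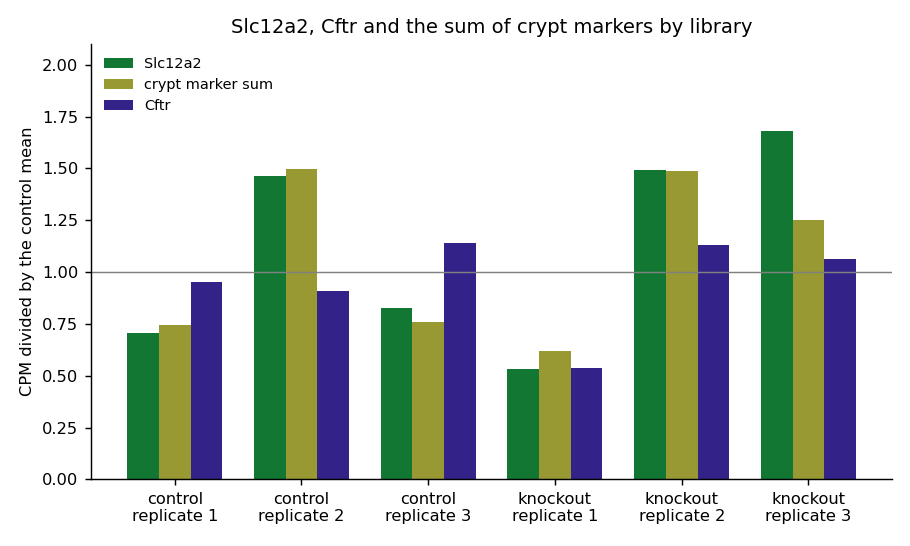
CPM of Slc12a2, of Cftr and of the sum of 9 crypt and progenitor markers, each divided by its mean in the 3 controls (vertical axis from 0, grey line at 1), in the 6 libraries. Slc12a2 and the crypt sum are both high in control replicate 2 (1.46 times the control mean for Slc12a2) and knockout replicate 2 (1.49), Slc12a2 is highest in knockout replicate 3 (1.68, with the crypt sum at 1.25), and Cftr is at 0.909 in control replicate 2.

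Of the absorptive exchangers, none separated the genotypes. Slc9a3 (ENSMUSG00000036123.8, chromosome 13, 74121457 to 74169442, protein coding), the sodium/proton exchanger, stood at 537, 421 and 398 CPM in the controls and at 588, 451 and 429 CPM in the knockouts. In both genotypes replicate 1 was the highest, and knockout replicate 1, low for most of these genes, held the most Slc9a3 of all libraries. For Slc9a3 the log2 fold change was 0.11 (SE 0.18, 95% interval −0.31 to 0.54, edgeR adjusted p = 0.773). The knockout was the higher library in each same-numbered pair, and the edgeR adjusted p with the replicate block was 0.644. Slc26a6 (ENSMUSG00000023259.16, chromosome 9, 108853283 to 108913049, protein coding), an exchanger of chloride for bicarbonate and oxalate, stood at 501, 416 and 443 CPM in the controls and at 424, 579 and 628 CPM in the knockouts. Knockout replicates 2 and 3 were above every control and replicate 1 lay within them. The log2 fold change was 0.26 (SE 0.17, 95% interval −0.15 to 0.67, edgeR adjusted p = 0.478).

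Slc26a3 (ENSMUSG00000001225.12, chromosome 12, 31390871 to 31473917, protein coding), the chloride/bicarbonate exchanger whose human counterpart is lost in congenital chloride diarrhoea, stood at 205, 173 and 234 CPM in the controls and at 147, 213 and 274 CPM in the knockouts. Its knockouts spread to both sides of the controls, with a log2 fold change of 0.05 (SE 0.23, 95% interval −0.50 to 0.60, edgeR adjusted p = 0.930). The count ratio of Slc26a3 to Slc26a6 was 0.408, 0.417 and 0.528 in the controls and 0.346, 0.368 and 0.436 in the knockouts. The ratio of Slc9a3 to Slc26a3 was 2.62, 2.43 and 1.70 in the controls and 4.01, 2.12 and 1.57 in the knockouts, and both ratios overlapped between the genotypes. In each same-numbered pair the ratio of Slc26a3 to Slc26a6 was lower in the knockout, which was not tested.

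Markers of gut region also differed among the libraries. The 5 jejunal markers summed to 4605 to 5413 CPM in controls and to 3347 to 4208 CPM in knockouts, with 1 higher and 1 lower at an unadjusted p under 0.05 by edgeR. Most of the jejunal sum was Lct (means of 2772 and 2111 CPM), which overlapped, and Fabp1 (1529 and 1067 CPM), which did not. Gata4 (119 and 115 CPM), Creb3l3 (378 and 387 CPM) and Onecut2 (104 and 157 CPM) overlapped. The 7 ileal markers measured summed to 2128 to 2479 CPM and to 2231 to 2915 CPM, with none at an unadjusted p under 0.05. By log2 fold change 6 were higher and 1 lower in knockouts, with a median of 0.51. The lower one was Clec2h, the ileal marker with the highest level, which was lower in each knockout than in any control (means of 1466 and 1196 CPM). Fabp6, the ileal bile acid binding protein gene, stood at 52.7, 232 and 188 CPM in controls and at 84.2, 312 and 818 CPM in knockouts, highest in the library with the most Slc4a4, Slc26a6 and Slc26a3. The part of the sampled region in these values was not tested.

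The order of the libraries across these genes did not follow genotype alone. Knockout replicate 1 was the lowest of the 6 libraries for 6 of 9 genes, namely Cftr, Slc12a2, Slc4a4, Slc26a3, Guca2a and Gucy2c, and for 20.6% of all genes tested. Knockout replicate 3 was above every control for 5 of 9 genes, against 33% of all genes. Without knockout replicate 1, 3 of 9 were called by edgeR (17.5% of all genes in that fit), and 5 of 9 did not overlap between genotypes (52.3% of all genes). In that fit Slc4a4 was higher by a log2 fold change of 0.80 (SE 0.14, edgeR adjusted p = 0.0112) and Gucy2c by 0.44 (SE 0.11, edgeR adjusted p = 0.0316). Guca2b was lower at −0.53 (SE 0.14, edgeR adjusted p = 0.0456). Both remaining knockouts, but 1 of 3 controls, were female by these transcripts. With sex by Xist and Ddx3y as a covariate over all 6 libraries, the log2 fold changes were 0.34 for Slc4a4, −0.0081 for Gucy2c and −0.35 for Guca2b, with edgeR adjusted p of 0.601, 0.993 and 0.398.

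The result for Guca2b at an unadjusted p was lost when any library other than knockout replicate 1 was left out. The log2 fold change was then −0.28 without knockout replicate 3 and −0.31 without control replicate 1. It was −0.47 without control replicate 2, −0.47 without control replicate 3 and −0.43 without knockout replicate 2, no smaller than with all libraries. The edgeR adjusted p was between 0.457 and 0.565 in these 5 fits. Without knockout replicate 2, Guca2a passed the unadjusted threshold, with a log2 fold change of −0.59.

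**Figure D3:**
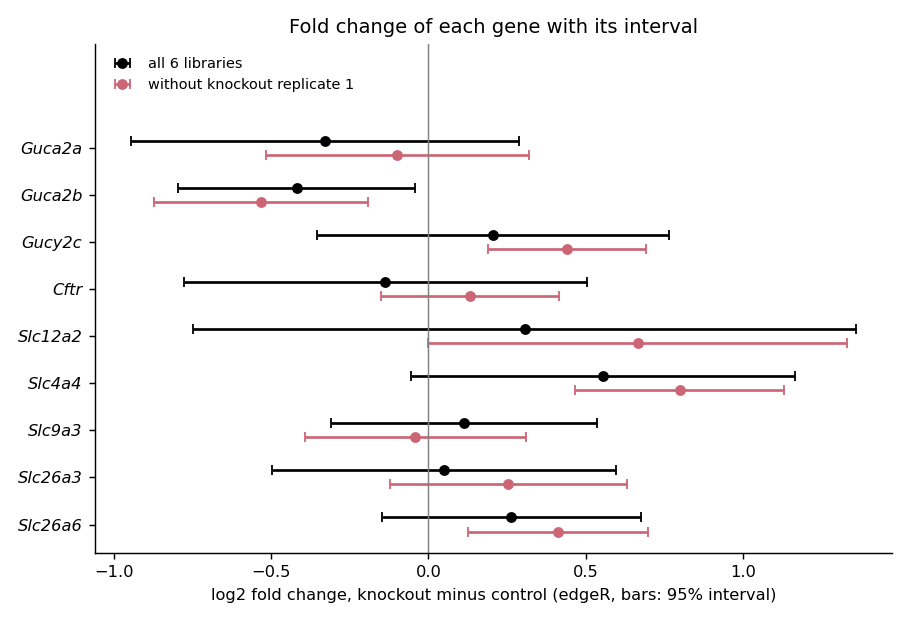
Log2 fold change, knockout minus control, of the 9 genes by edgeR with its 95% interval (horizontal bars), for all 6 libraries and without knockout replicate 1. With all libraries the interval of Guca2b alone lies on 1 side of 0 (−0.79 to −0.04), and without knockout replicate 1 those of Slc4a4, Gucy2c and Slc26a6 do so too.

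Levels were compared between genes per length, as CPM per kilobase of merged exons. Guca2b had the highest level, a mean of 469 over the 6 libraries (331 to 603), followed by Guca2a at 211 (122 to 265) and their receptor Gucy2c at 108 (74.2 to 143). By this measure the ligands and receptor of the guanylin signal held the 3 highest levels of the 9. Merged exons join all annotated transcripts of a gene, 10 for Slc26a6 against 2 for Gucy2c and 1 for Guca2a. The order depends on these lengths, and no other length was tried. Slc26a6 at 92.1 and Slc9a3 at 85.5 came next and did not differ beyond their spread, with a mean log2 difference within libraries of 0.10 ± 0.36 (SD, n = 6). Slc4a4 stood at 42.9, Slc26a3 at 32.6, Cftr at 20.2 and Slc12a2 at 13.0, each above the next by more than the SD of the difference within libraries. The order of neighbours held in all 6 libraries except between Gucy2c and Slc26a6 and between Slc4a4 and Slc26a3 (5 of 6 each) and between Slc26a6 and Slc9a3 (4 of 6). Merged exons of Guca2a and Guca2b span 594 and 870 bases, the shortest of the 9.

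**Figure D4:**
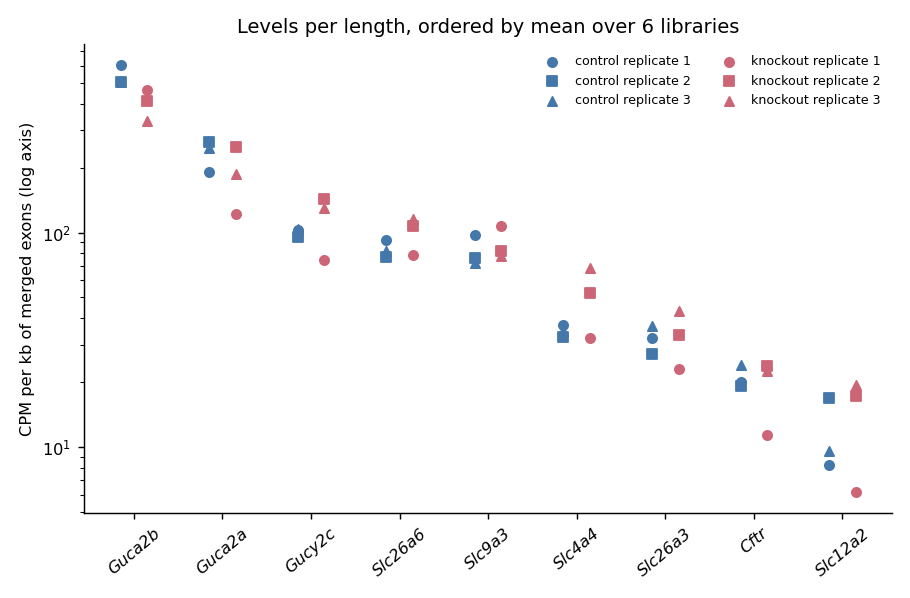
CPM per kilobase of merged exons (log axis) of the 9 genes, ordered by their mean, with control libraries in blue, knockout libraries in red and marker shape for the replicate number. The means span from 469 for Guca2b to 13.0 for Slc12a2, and Slc26a6 and Slc9a3 lie at nearly the same level (92.1 and 85.5).

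The genes whose pattern over the 6 libraries was most like that of Guca2b, among 7976 with a mean of at least 10 CPM, were Abhd18, Stard13 and Slc5a11. Their log2 CPM, centred on the mean of each gene, differed from that of Guca2b by a root mean square of 0.07, 0.08 and 0.09, against a median of 0.31 over all these genes. Slc5a11, a sodium-dependent carrier of inositol, stood at 132, 127 and 124 CPM in the controls and at 102, 91.8 and 81.6 CPM in the knockouts. Among the 9 genes, the closest pair was Slc26a6 and Gucy2c (0.16) and the most distant pair Slc12a2 and Guca2b (0.81).

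Beyond the 9 genes, 9 lists of 132 related genes were examined, of which 100 could be tested. By edgeR 0 of the 100 were called, with 12 higher (9.32% of all genes) and 9 lower (7.09%) at an unadjusted p under 0.05, and DESeq2 called 10 of the 100 (5.55% of all genes). Their median log2 fold change was −0.02, against 0.01 over all genes. Without knockout replicate 1, edgeR called 25 of them, 15 higher and 10 lower, against 17.5% of all genes. Apart from the most abundant gene of each list, the rule for the genes named below required that the genotypes did not overlap. Lack of overlap in genes named by that rule is therefore not a separate result. Over all genes tested, the genotypes did not overlap for 10% with knockouts higher and 11.7% with knockouts lower.

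Of 15 anion channels and exchangers tested, 0 were higher and 3 lower at an unadjusted p under 0.05. Clca1, a secreted goblet cell protein that regulates calcium-activated chloride channels, stood at 4126, 4419 and 5344 CPM in the controls and at 3701, 2514 and 2731 CPM in the knockouts, with a log2 fold change of −0.63 (SE 0.21, edgeR adjusted p = 0.217, DESeq2 adjusted p = 0.0366). Ano6, a channel and lipid scramblase, stood at 869 ± 61.5 and 645 ± 56.1 CPM, and the basolateral chloride/bicarbonate exchanger gene Slc4a2 at 142 ± 1.67 and 117 ± 13.7 CPM (SD, n = 3 each). All 3 were lower in each knockout than in any control, which the naming rule required of Ano6 and Slc4a2. DESeq2 called Clca1 and Ano6 (adjusted p = 0.0231 for Ano6). The 8 goblet cell markers summed to 19415 to 25845 CPM in controls and to 18902 to 20762 CPM in knockouts. Clca1 is on that list, so the sum contains its values. Of the 8, 4 had a log2 fold change above 0 and 4 below, with a median of 0.01. The part of goblet cell content in the Clca1 values was not tested.

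Carbonic anhydrases supply the bicarbonate that these exchangers carry. Of 8 tested, 2 were higher and 0 lower at an unadjusted p under 0.05. Car2, the cytosolic enzyme, stood at 10.5, 10.5 and 14.1 CPM in the controls and at 18.9, 52.6 and 49.6 CPM in the knockouts. Each knockout was above each control, with a log2 fold change of 1.79 (SE 0.38, edgeR adjusted p = 0.120, DESeq2 adjusted p = 0.000221). Car4, the membrane enzyme and the most abundant of the list, overlapped (314 ± 96.7 and 226 ± 84.4 CPM, SD, n = 3 each).

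Of 19 cyclic GMP genes 6 could be tested, with 2 higher and 1 lower at an unadjusted p under 0.05. Abcc4, which exports cyclic nucleotides, stood at 1.89, 1.92 and 1.72 CPM in the controls and at 3.59, 12.5 and 7.69 CPM in the knockouts, with a log2 fold change of 2.11 (SE 0.44, edgeR adjusted p = 0.118, DESeq2 adjusted p = 0.000278). Pde5a, the phosphodiesterase of cyclic GMP and the most abundant of the list, overlapped (204 ± 2.82 and 187 ± 20.8 CPM, SD, n = 3 each). Pde2a, a phosphodiesterase stimulated by cyclic GMP, had means of 0.622 and 0.146 CPM without overlap. These rest on few reads, 13, 13 and 18 counts in the controls and 7, 1 and 1 in the knockouts.

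Of 24 cyclic AMP and secretagogue genes tested, 6 were higher and 2 lower at an unadjusted p under 0.05. The prostaglandin receptor gene Ptger4 stood at 67.9, 45.1 and 59.4 CPM in the controls and at 109, 76.5 and 104 CPM in the knockouts, with a log2 fold change of 0.75 (SE 0.19, edgeR adjusted p = 0.160, DESeq2 adjusted p = 0.0224). The kinase subunit gene Prkacb (means of 11.0 and 17.9 CPM) and the phosphodiesterase gene Pde4b (1.99 and 3.88 CPM) had knockout to control ratios of 1.63 and 1.95. Neither overlapped, and the DESeq2 adjusted p were 0.0263 and 0.0330. The 2 lower genes were Pde3a, a more abundant phosphodiesterase gene (117 and 86.9 CPM), and Galr1 (0.593 and 0.292 CPM). Galr1 had only 5 to 18 counts per library. The whole list summed to 1224 to 1272 CPM in controls and to 1230 to 1250 CPM in knockouts. Vipr1, the receptor for vasoactive intestinal peptide and the most abundant of the list, was lower in each knockout than in any control (298 ± 5.38 and 261 ± 4.51 CPM, SD, n = 3 each). Ptger4 and Pde4b are also known from immune cells, whose T cell markers were higher in the knockouts as given above, and the part of those cells was not tested.

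The scaffolds that hold CFTR and NHE3 at the apical membrane gave 1 higher and 1 lower of 14 at an unadjusted p under 0.05. Ezr, which encodes ezrin and links these proteins to actin, stood at 1311 ± 48.1 and 1774 ± 329 CPM, and Snap23, a membrane fusion protein gene, at 55.3 ± 2.62 and 43.2 ± 3.99 CPM (SD, n = 3 each), both without overlap. Myo1a, the brush border motor gene and the most abundant of the list, overlapped (1655 and 1587 CPM). Of 10 sodium absorption genes 0 had an unadjusted p under 0.05. Of 8 potassium channels and carriers of secretion 1 was lower, Kcnj15, with means of 1.25 and 0.363 CPM and only 3 to 36 counts per library. The most abundant, Slc12a7, overlapped (251 and 299 CPM).

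Of 9 genes of the WNK and SPAK kinases, which control NKCC1 by phosphorylation, and their targets, 1 was higher at an unadjusted p under 0.05. It was Slc12a4, a potassium chloride cotransporter gene, with means of 0.298 and 0.747 CPM and only 5 to 23 counts per library. The most abundant, Cab39, stood at 299 ± 10.4 and 296 ± 22.4 CPM (SD, n = 3 each). Of 6 aquaporins 1 was lower, the water channel gene Aqp1, at 121, 193 and 117 CPM in the controls and 81.9, 90.6 and 72.4 CPM in the knockouts. Its log2 fold change was −0.82 (SE 0.21, edgeR adjusted p = 0.160, DESeq2 adjusted p = 0.0175). Aqp1 is also known from endothelium, whose 6 markers summed to 1.63 to 3.31 CPM in controls and to 3.66 to 12.5 CPM in knockouts, and their part in the Aqp1 values was not tested.

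**Figure D5:**
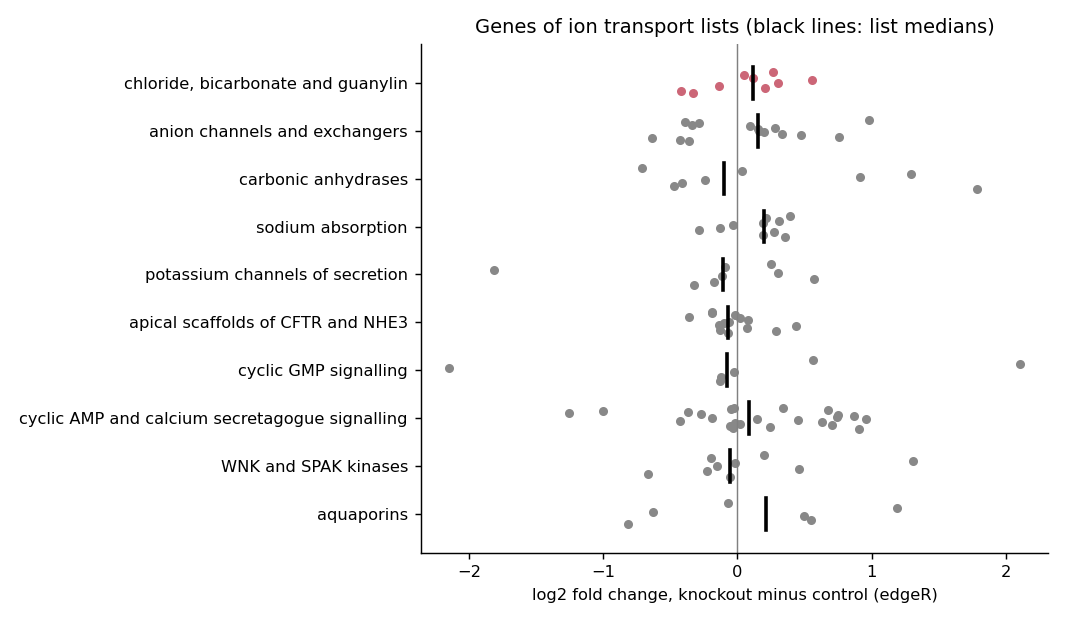
Log2 fold change, knockout minus control, by edgeR for the 9 genes (red) and for the tested genes of 9 related lists (grey), with a black line at the median of each list. The 9 genes lie between −0.42 and 0.55 around a median of 0.11, and single genes of other lists such as Abcc4 (2.11) and Car2 (1.79) lie further from 0.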

How the data were processed

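RNA was sequenced from epithelium of 6 mice, 3 control and 3 knockout, with groups and replicate numbers taken from the titles, each a different numbered mouse. The submitters' processing notes list STAR 2.5.0a, Trim Galore, FastQC, bcl2fastq 2.17 and build mm10. Which program counted reads, whether it used strand, and which annotation it used were not given in the sources used here. Reads of overlapping genes could therefore not be separated. The values the authors deposited are raw read counts for each gene.

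Counts were tested on the whole table with edgeR 4.0.16 in R 4.3.3, by the two-sided quasi-likelihood test with trimmed-mean (TMM) scaling, the default filter (minimum count 10) and genotype as the sole term. P-values were adjusted by Benjamini-Hochberg over all genes tested, with 0.05 as the threshold. CPM uses the scaled library total, and standard errors are the log2 fold change over the square root of F. Exon lengths are merged exons of GENCODE mouse release 21. The lowest count of the 9 genes was 1334, whose exact 95% Poisson interval (1263 to 1408) covers counting error only. In simulated counts for knockout against control over 15068 genes, edgeR recovered 39% of genes with a 2-fold change and 87% with a 4-fold change. Simulated libraries of a group shared their means and varied by the trended dispersion, so none stood apart as knockout replicate 1 did. Each of the 9 genes changed by less than 2-fold, a size that was not simulated.

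The 9 genes and the lists were chosen with earlier results of these data known. Named were all 9 genes, the most abundant gene of each list, up to 3 genes per list with the smallest unadjusted p and no overlap, the genes most like Guca2b, and Prkci, Xist and Ddx3y. Vil1, Fabp6, Mki67, Lgr5, Lct, Fabp1, Gata4, Creb3l3, Onecut2, Clec2h, Pde3a, Galr1, Mmp7, Myh11 and Mylk were named after their values were seen. A result that the rule would name is not reported here. Alternatives were DESeq2 1.42.0, other scalings, no filter, another dispersion estimate, the replicate block, sex, and leaving out libraries. Deviations of same-numbered libraries correlated at 0.142, 0.131 and 0.134 across genes, all above 0.1, so the numbers were treated as a pairing for the block, although no label says what they mark.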

Additional observations from a re-analysis of the deposited data

How the results depend on the processing

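The 9 fold changes were recomputed under 15 alternatives, and of the 135 values 121 kept their direction and their side of the threshold, 11 changed sign and 3 passed the threshold. Under these alternatives 0 of 9 were called except without knockout replicate 1, where Slc4a4, Gucy2c and Guca2b passed, so that leaving out a library gave 0 to 3 called. Guca2b, Guca2a and Slc4a4 kept their direction in all 15. Among the sign changes, Cftr was 0.13 and Slc9a3 −0.041 without knockout replicate 1 (−0.31 to 0.13 and −0.041 to 0.27 without single libraries). With sex by Xist and Ddx3y as a covariate, Slc26a3 was −0.15, Slc12a2 −0.041 and Gucy2c −0.0081. Slc26a3 was −0.075 with library totals and −0.16 to 0.25 without single libraries, below 0 without control replicate 2 or knockout replicate 3. Without the 3 libraries of conflicting sex, an alternative added after seeing the data that leaves 1 control assumed to vary like the knockouts, Slc9a3 was −0.051, Slc26a3 −0.19 and Slc26a6 −0.0020, and 0 genes in all were called. The cause of these sign changes was not tested.

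The count at an unadjusted p under 0.05 was 2 of 9 with no filter and with DESeq2, 0 with either sex covariate or without those 3 libraries, and 0 to 4 without single libraries. The count without overlap was 1 to 5 without single libraries (2 without control replicate 1 or knockout replicate 2, 5 without knockout replicate 1). Over all genes 9 were called, against 16 with library totals, 284 with no filter, 836 with DESeq2 and 4 with the sex of the series text. It was 0 to 2700 without single libraries, with 0 without each control or knockout replicate 3 and 2700 without knockout replicate 1. With the replicate block 0 genes in all were called, and of the 9 genes 0 were called and 1 had an unadjusted p under 0.05. Of the 100 related genes, counted under alternatives added after seeing the data, 2 were called with no filter, 10 with DESeq2 and 0 to 25 without single libraries. Library totals moved the median fold change of all genes by −0.11 and the higher share of genes at an unadjusted p from 56.8% to 39.7%. Depth gave 1334 to 18554 counts per library for the 9 genes.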
